A study of Danio rerio with 6 samples.

Results

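The immediate early transcription factor genes of the zebrafish embryonic eye were examined on 6 Affymetrix Zebrafish Genome Arrays, which measure transcripts with groups of short oligonucleotides called probe sets. The genes were taken from the probe annotation as all probe sets with a single symbol that begins with fos, jun, egr1 to egr4, atf3, ier2, ier5 or btg2. This gave 23 of the 15555 probe sets tested, for 15 genes among 8793 distinct symbols. Embryos of the SciH line were kept from 48 to 75 hpf (hours post-fertilization) in 0.3 µM all-trans retinoic acid (RA) with 0.1% DMSO, or in 0.1% DMSO alone (the control). Each of 3 clutches contributed embryos to both treatments, and the RNA of 64 dissected eyes formed 1 pool and 1 array, so that each group holds 3 pools. The sample titles number the pools 1, 3 and 4 in both groups. Same-numbered pools were taken to share a clutch, which the titles do not state, and are called clutches 1, 3 and 4 below. The embryos were snap-frozen at 75 hpf and the eyes were dissected from them afterwards. The question was which genes respond to RA while photoreceptors differentiate. The genes were selected on array signals, that is with their RA and DMSO values already known, fosab in particular for its large difference from the other genes, so their levels and differences are given as descriptions and no p-value is attached to any of them.

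Immediate early genes are transcribed within minutes of a stimulus without new protein synthesis, mostly through serum response factor, ternary complex factors and CREB that already sit on their promoters, and their mRNAs are short-lived. Products of the fos and jun families are basic leucine zipper proteins that pair to form the transcription factor AP-1. Jun proteins can pair with each other or with Fos, whereas Fos proteins need a Jun partner, and ATF3, a stress-induced relative, can join Jun proteins as well. The egr genes encode zinc finger factors. In the vertebrate retina these genes are known for their response to light and injury, and in mammalian cells retinoid receptors bound to RA are known to interfere with AP-1 activity.

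The values were linear signals with the same trimmed mean on every array and medians of 39.5 to 43.5. The brightest of 87 no-target control probe sets, at 13.2, set the background, which 67.2% to 70.0% of probe sets exceeded. Exposure to RA was plain in the arrays, as cyp26a1, for an enzyme that clears RA, gave 104 to 145 in DMSO pools and 1557 to 1652 in RA pools (limma adjusted p = 0.000942). The RA-responsive genes cyp26b1 and dhrs3a also passed (log2 differences 4.71 and 3.95), and aldh1a2, for an enzyme that makes RA, did not (-1.62, adjusted p = 0.119). The eye label was borne out by its defining genes: all 10 measured photoreceptor genes and all 12 measured retinal progenitor and inner retina genes lay above background on all 6 arrays. In pooled whole eyes, fewer cells of a type and less RNA per cell cannot be told apart. RNA integrity was read from the control probe sets named acta1, which lie at either end of an actin transcript. The probe annotation gives them the symbol actc1b, also one of the muscle genes below. The acta1 3' signal over the 5' signal was 64.5, 20.2 and 12.0 with DMSO (clutches 1, 3 and 4). With RA it was 7.65, 11.7 and 5.3, so that all DMSO pools lay above all RA pools. The same ratio for gapdh overlapped between the groups, at 2.58, 1.64 and 1.48 with DMSO and 1.74, 1.75 and 1.32 with RA.

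The gene fosab, a zebrafish ortholog of the mammalian proto-oncogene Fos, had by far the largest difference of the 15 genes. Its brightest probe set gave signals of 28.0, 24.5 and 18.2 in DMSO eyes (clutch 1, clutch 3 and clutch 4, the order used throughout). In RA-treated eyes it gave 107, 135 and 123. The lowest RA pool was thus well above the highest DMSO pool, and the DMSO pools lay only modestly above background. The means were 23.5 ± 4.98 (SD, n = 3 pools) and 122 ± 14.4, a log2 difference of 2.39 with a standard error of 0.22, or 5.23-fold. By clutch the log2 difference was 1.93, 2.47 and 2.76. Of all 15555 probe sets tested, 60 had a larger positive difference, as did 7 of the 9791 that exceeded background on every array. The 9791 leave out every probe set that lay at background in DMSO pools and rose above it with RA. Both ranks rest on the difference for which fosab was selected.

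The 3 dimmer fosab probe sets all gave higher signals in every RA pool than in any DMSO pool, a pattern seen in 6.98% of all probe sets. The first gave 15.6, 14.3 and 12.0 in DMSO eyes and 56.4, 65.7 and 44.4 in RA-treated eyes, a log2 difference of 1.98 (standard error 0.21). Its DMSO pool of clutch 4 lay at background, so the size of that difference is approximate. Another lay at background in all DMSO pools, gave 13.8, 10.7 and 20.6 with RA, and was at least 1.1-fold higher when measured from the background. The dimmest gave 2.67, 3.19 and 3.45 with DMSO and 6.05, 9.14 and 21.5 with RA, above background on a single array, so no fold is given. The 4 probe sets share a gene and the same 6 RNA pools and are not independent of each other.

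Besides fosab, the acta1 ratio and some markers of other cell types were apart between the groups, while the gapdh ratio overlapped. Of 4 measured endothelial genes (kdrl, tie1, tal1, plvapb), 2 lay at background on all arrays, including a defining gene, tie1. The summed signal was 69.5 to 85.3 in DMSO pools and 122 to 153 in RA pools. Above background on all arrays, kdrl gave 37.7 to 48.7 with DMSO and 62.8 to 66.4 with RA. The values of plvapb were 18.4 to 40.3 and 46.6 to 76.7. Of 9 leukocyte genes, 2 lay at background on all arrays, among them the pan-leukocyte gene ptprc. The summed signal was 579 to 1547 with DMSO and 745 to 848 with RA. The highest DMSO sum was that of clutch 3, where mpx gave 946 against 102 and 106 in the other DMSO pools. The list's median log2 difference was 0.44. In 3 of the 9 every RA pool exceeded every DMSO pool, beside 6.98% of all probe sets, and none had the reverse. These were lyz, cxcr4b and csf1ra, the last at background on all arrays. Of 6 erythroid genes, 3 lay at background on all arrays, and the summed signal was 1647 to 2400 with DMSO and 1209 to 1492 with RA, without overlap. Most of that sum was hbae3, with means of 1794 and 1182. The summed signals overlapped for the 8 muscle genes, at 2817 to 3786 and 2481 to 3091, where actc1b was the largest part. Every RA pool exceeded every DMSO pool in 2 of the 8, beside 6.98% of all probe sets, and none had the reverse. These were tnnt3a (means 135 and 282) and myog (15.0 and 36.8). The sums also overlapped for the 8 epidermal genes, at 4825 to 5826 and 4882 to 4973. None of the endothelial, leukocyte, erythroid, muscle or epidermal genes passed the limma test at 10% FDR (false discovery rate). In the remaining lists, the lens gene cryaa rose from 306 to 705 (limma adjusted p = 0.0816). The other measured lens genes, crybb1 and bfsp2, had log2 differences of 0.00 and 0.04. The cartilage gene matn1 fell from 50 to 11, where the RA pools were at background (adjusted p = 0.0824). Of 8 cartilage and mesenchyme genes, 2 (matn1 and prrx1a) had every RA pool below every DMSO pool, beside 8.28% of all probe sets. None of the 8 had the reverse. With the clutch added to the fit as a block, neither cryaa nor matn1 passed (adjusted p = 0.175 and 0.208). With 1 array left out, cryaa passed in 0 of 6 fits and matn1 in 1. In clutches 1, 3 and 4 the acta1 ratio was 64.5, 20.2 and 12.0 with DMSO and 7.65, 11.7 and 5.3 with RA. The log2 difference of fosab was 1.93, 2.47 and 2.76 in the same order. The part of these markers and of RNA integrity in the fosab difference was not tested.

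**Figure D1:**
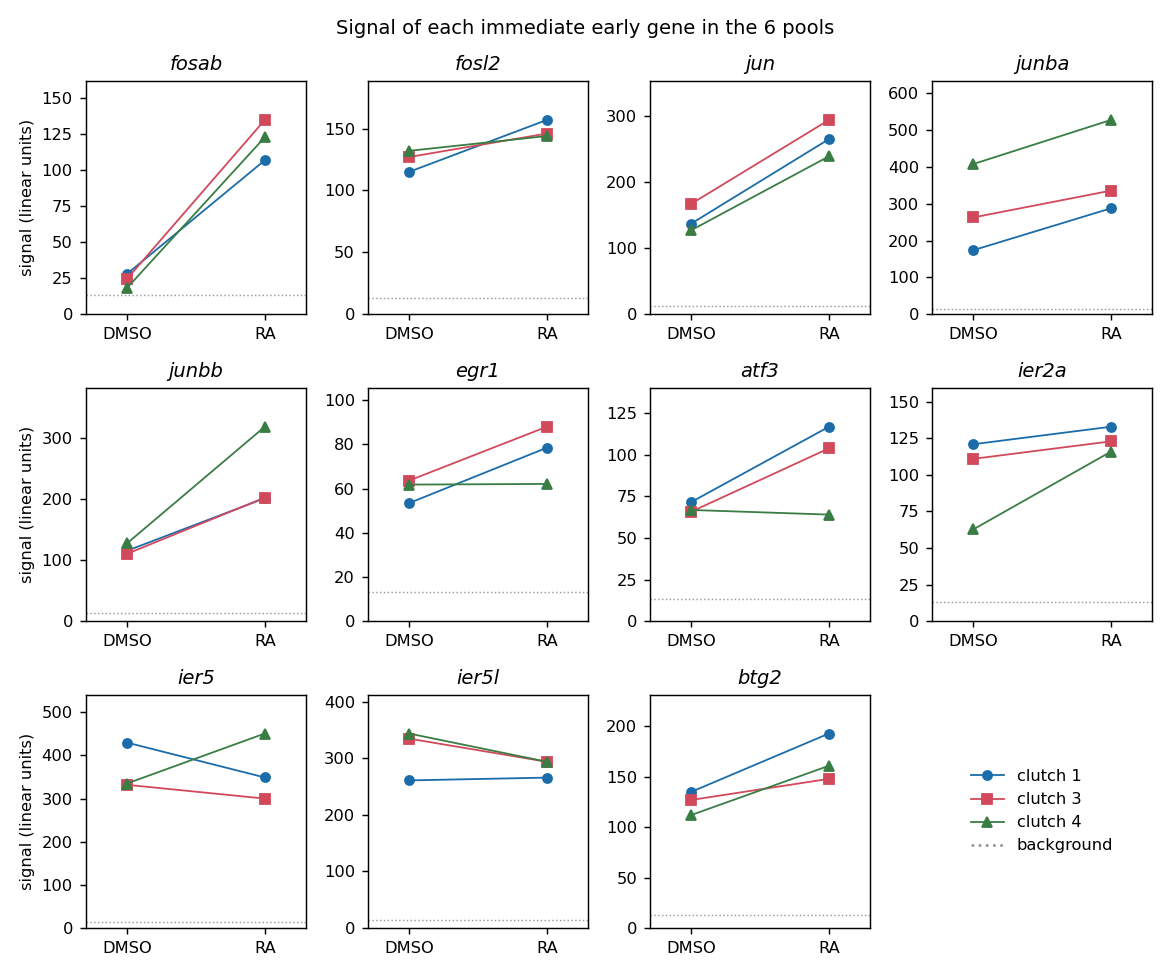
Signal (linear units, axes from 0) of the brightest probe set of the 11 immediate early genes above background on all 6 arrays, in DMSO and RA pools. Each point is a pool, each line joins the pools of a clutch, and the dotted line is the background of 13.2. For fosab the RA pools lie at 107 to 135 and the DMSO pools at 18.2 to 28.0. The lines of atf3, ier5 and ier5l differ in direction between clutches.

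The jun genes, whose products are the obligate partners of Fos in AP-1, gave smaller differences than fosab. For jun itself the brighter probe set gave 137, 167 and 127 in DMSO eyes and 265, 294 and 239 in RA-treated eyes. The groups did not overlap, and the log2 differences by clutch were nearly alike at 0.95, 0.82 and 0.92. The mean difference was 0.90 (standard error 0.18), or 1.86-fold. Its dimmer probe set gave 27.7, 49.1 and 36.7 with DMSO and 68.8, 80.6 and 94.9 with RA, a log2 difference of 1.13 (standard error 0.26). Both probe sets of jun thus placed every RA pool above every DMSO pool, as did 6.98% of all probe sets.

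The duplicated junb genes, junba and junbb, encode JunB, a Jun protein that in mammalian cells often acts as a weaker activator than c-Jun. The signal of junbb was 115, 110 and 127 in DMSO eyes and 201, 202 and 318 in RA-treated eyes. The RA pool of clutch 4 stood above the other RA pools, and the groups did not overlap (log2 difference 1.00, standard error 0.23, 2.00-fold). The signal of junba was 174, 263 and 408 with DMSO and 288, 336 and 528 with RA, and here the groups overlapped. Both treatments followed the same order of clutches, lowest in clutch 1 and highest in clutch 4, and the RA pool was above its own clutch's DMSO pool each time, with log2 differences of 0.73, 0.35 and 0.37. Across pools the mean difference of junba was 0.48 with a standard error of 0.38.

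The fos relative fosl2 encodes Fra-2, a Fos family member without the strong activation domain of Fos. Its brightest probe set gave 115, 127 and 132 in DMSO eyes and 157, 146 and 144 in RA-treated eyes, a log2 difference of 0.25 (standard error 0.15). The remaining probe sets of the gene gave larger values, 0.58 (standard error 0.28) and 0.86 (standard error 0.29). All 3 had their lowest signal in the DMSO pool of clutch 1, at 33.7 against 59.4 and 66.4 in the other DMSO pools for the probe set with a difference of 0.58. That pool is also the one with the acta1 ratio of 64.5. In clutches 3 and 4 that probe set differed by 0.32 and 0.19. The probe set with a difference of 0.86 differed there by 0.81 and 0.61, and the brightest by 0.19 and 0.12. The part of RNA integrity in these differences was not tested. All 3 probe sets placed every RA pool above every DMSO pool, as did 6.98% of all probe sets, but the sizes of the 3 differences disagreed. The gene fosl1b, for a relative of Fra-1, lay at background on all arrays (9.54 to 12.7).

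Of the egr genes, only egr1 had a probe set above background. The product of egr1 is a zinc finger factor that is widely used as a marker of recent neuronal activity. Its brighter probe set gave 53.4, 63.6 and 61.8 in DMSO eyes and 78.5, 88.0 and 62.1 in RA-treated eyes. The RA pools of clutches 1 and 3 lay above every DMSO pool, while that of clutch 4 lay within the DMSO range. The log2 difference was 0.34 (standard error 0.20), and by clutch it was 0.56, 0.47 and 0.01. Its other probe set lay at background on all arrays, as did those of egr2a, egr2b and egr4, the first pair of which encode the Krox20 proteins known from the hindbrain and from myelinating Schwann cells. No fold is given for these genes.

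The stress-induced gene atf3 showed the same clutch pattern as egr1. It gave 71.6, 65.8 and 66.9 in DMSO eyes, a narrow range, and 117, 104 and 64.1 in RA-treated eyes. The RA pool of clutch 4 was the lowest of all 6 pools, so the groups overlapped. The log2 difference by clutch was 0.70, 0.66 and -0.06, with a mean of 0.43 (standard error 0.26).

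The remaining genes are not AP-1 or egr factors but share the early kinetics. The gene btg2 encodes an antiproliferative cofactor of mRNA deadenylation. Its brighter probe set gave 135, 127 and 112 with DMSO and 193, 148 and 161 with RA, without overlap (log2 difference 0.42, standard error 0.18). Its dimmer probe set overlapped between the groups, at 14.7 to 30 and 27.1 to 38.6. The nuclear protein gene ier2a gave 121, 111 and 62.7 with DMSO and 133, 123 and 116 with RA. Most of its difference of 0.39 (standard error 0.28) came from clutch 4, at 0.89, against 0.14 and 0.15 in clutches 1 and 3. The gene ier5, for a relative of ier2 linked to heat shock factor in mammalian cells, gave 366 ± 55.7 (SD, n = 3) and 367 ± 77.3, and its clutches disagreed in direction (-0.30, -0.15 and 0.43). The related ier5l gave 313 ± 45.6 and 285 ± 16.1 (log2 difference -0.13, standard error 0.18).

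**Figure D2:**
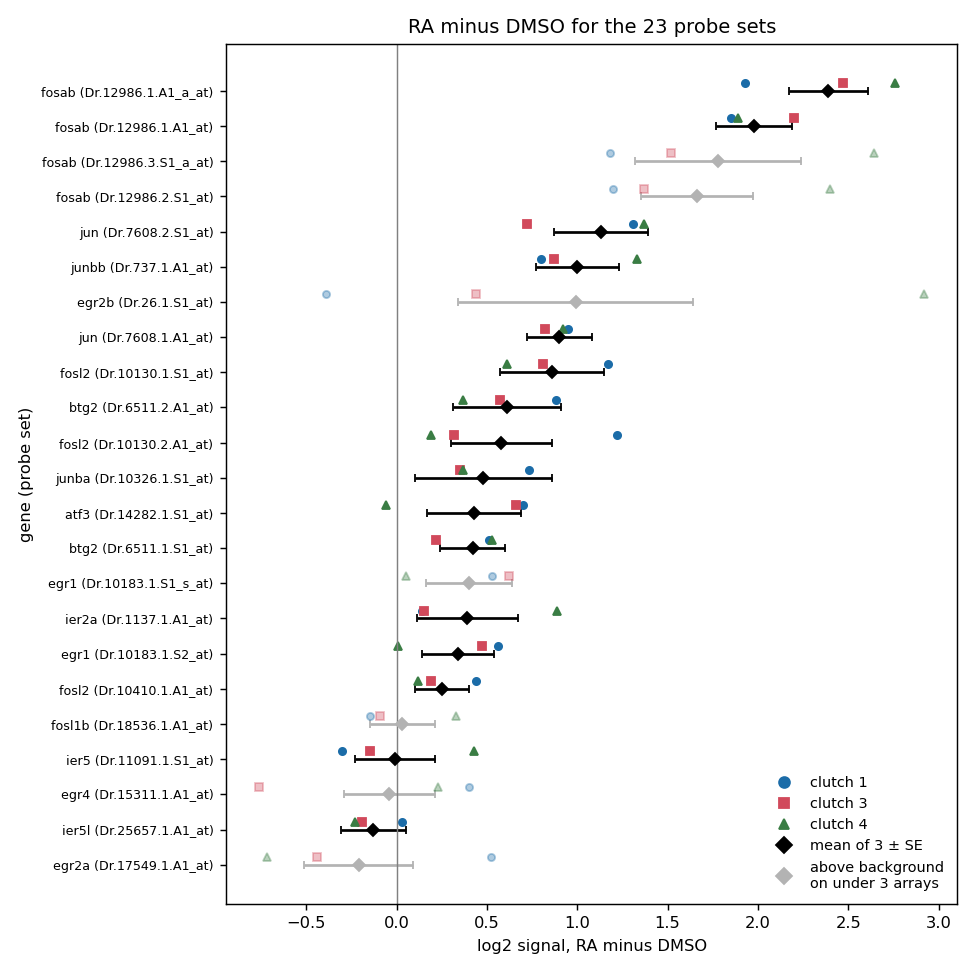
Log2 signal in RA minus DMSO pools (x axis) for the 23 probe sets (y axis). Diamonds are means of 3 pools against 3 with the limma standard error, and small symbols are the differences within clutches 1, 3 and 4. Grey diamonds and pale symbols mark the 7 probe sets above background on fewer than 3 arrays. The 4 fosab probe sets lie at 1.66 to 2.39 and those of jun and junbb at 0.90 to 1.13.

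Over all 23 probe sets the log2 difference ran from -0.21 to 2.39 with a median of 0.48, beside a median of 0.00 over all 15555 probe sets. Of the 23, 5 lay at background on all 6 arrays, 2 were above it on 1 or 2 arrays and 16 on at least 3. In 11 of 23 (47.8%) every RA pool lay above every DMSO pool, a pattern seen in 6.98% of all probe sets tested. None of the 23 had the opposite pattern, which held for 8.28% of all probe sets. The RA pool exceeded the DMSO pool in all 3 clutches for 16 of the 23, beside 15.8% of all probe sets. These 23 include 4 probe sets of fosab, 3 of fosl2 and 2 each of jun, egr1 and btg2, which are not independent. Counted by gene with the brightest probe set, 5 of 15 did not overlap (fosab, fosl2, jun, junbb and btg2). Since the genes were selected with this contrast known, nothing is read from these shares.

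In the limma fit over all probe sets, 131 (0.842%) passed the FDR of 10%, and of the 23 these were 2, both of fosab and both higher with RA, the direction of 0.604% of all probe sets (0.238% were lower). With the clutch as a block, where 45 probe sets (0.289%) passed, 1 of the 23 did, a dimmer fosab probe set, and the brightest fosab probe set did not. The dimmer one dropped out without the DMSO pool of clutch 3, the RA pool of clutch 1 or the RA pool of clutch 3. That left 1 of the 23 each time (0.476%, 0.527% and 0.334% of all probe sets passed in these fits). The brightest passed whichever array was left out. Because fosab was selected for its difference on these arrays, its calls are a description and lend that difference no support. When only the 10879 probe sets above background on at least 3 arrays were fitted, 272 (2.5%) passed. Of the 23, 16 were in this fit and 5 passed, as both jun probe sets and junbb joined the pair of fosab.

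The distance between fosab and the other genes was present in every clutch. The log2 difference of fosab exceeded that of jun by 0.98, 1.65 and 1.84 in clutches 1, 3 and 4, and that of junbb by 1.13, 1.59 and 1.43. Against egr1 it exceeded by 1.37, 2.00 and 2.75, and against atf3 by 1.23, 1.81 and 2.82. The distance was thus smallest in clutch 1 for each of these genes. It was also smallest in clutch 1 for fosl2 (1.49, 2.27 and 2.64) and junba (1.20, 2.11 and 2.39). These values rest on 1 pair of pools per clutch and describe the selection of fosab.

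Within the groups the genes did not all deviate together. The DMSO pool of clutch 4 was the lowest DMSO pool for fosab (0.35 below the group mean on the log2 scale, written as a deviation of -0.35), ier2a (-0.59), jun (-0.17) and btg2 (-0.16). The same pool was the highest DMSO pool for junba (0.62), ier5l (0.15), junbb (0.11) and fosl2 (0.08). Among RA pools, clutch 4 was the lowest for atf3 (-0.52), egr1 (-0.28), jun (-0.15), ier2a (-0.09) and fosl2 (-0.05) and the highest for junba (0.51), junbb (0.44) and ier5 (0.32). No pool was therefore high or low for all of the immediate early genes. The median within-group SD was 0.32 on the log2 scale for the 23 probe sets and 0.31 for all probe sets tested.

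The genes around the immediate early response were followed with 6 lists, which hold 164 measured genes after leaving out the 15. Of these, 2 rose past 10% FDR in the limma fit (1.22%, beside 0.842% of all probe sets), none fell and 162 did not pass. At an unadjusted p under 0.05 there were 20 higher and 7 lower, beside 8.76% of all probe sets in both directions together. The same share stands beside the unadjusted counts of each list below. The median log2 difference over the 164 genes was 0.14.

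Both genes that rose encode feedback inhibitors of cytokine signaling. The signal of socs3a, for a suppressor of JAK kinases, was 52.6, 66.3 and 47.5 in DMSO eyes and 140, 202 and 217 in RA-treated eyes (log2 difference 1.74, standard error 0.24, limma adjusted p = 0.057). Its paralog socs3b gave 133, 111 and 129 and then 267, 419 and 385 (log2 difference 1.5, standard error 0.22, adjusted p = 0.0681). The pools of both did not overlap, a pattern seen in 6.98% of all probe sets. Blocking by clutch ended both calls (adjusted p = 0.187 and 0.224), and leaving out a single array kept each call in 1 of 6 fits (adjusted p 0.0878 to 0.245 and 0.0877 to 0.264). The remaining 27 of 29 measured feedback genes, among them phosphatases of MAP kinases (dusp genes), sprouty genes and gadd45 genes, did not pass, and the list's median was 0.16. In 8 of the 29 every RA pool exceeded every DMSO pool, beside 6.98% of all probe sets. Besides socs3a and socs3b these were dusp5, zfp36l1a, gadd45ab, gadd45ba, gadd45ga and gadd45bb, the last above background on 1 array only. The reverse held for 1, zfp36l2, beside 8.28% of all probe sets.

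**Figure D3:**
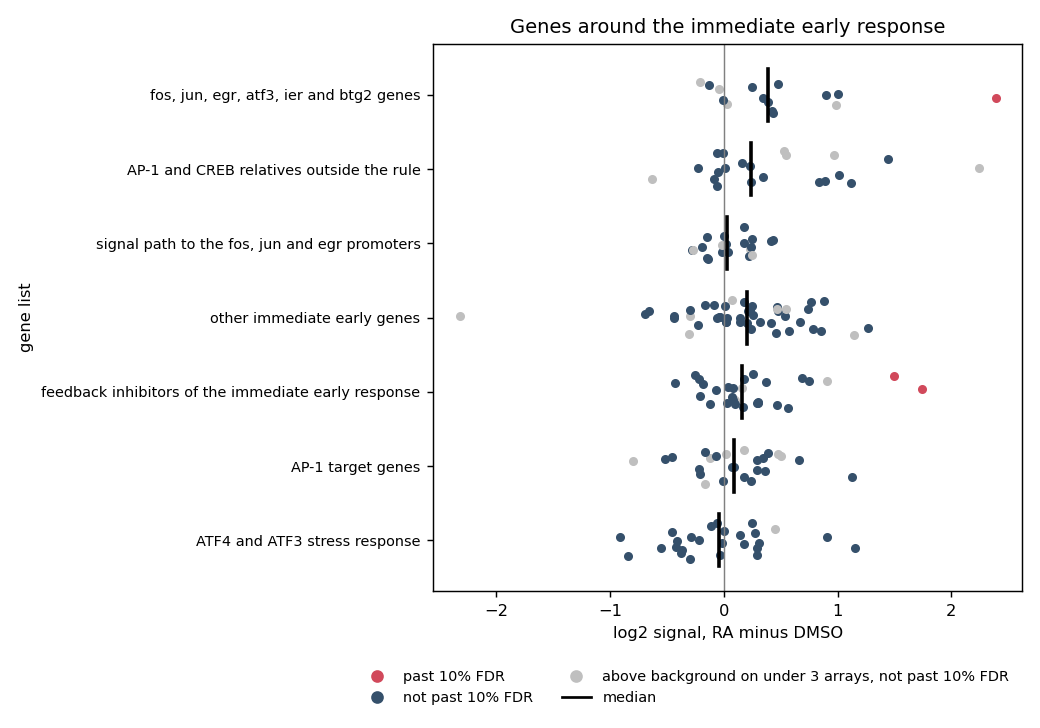
Log2 signal in RA minus DMSO pools (x axis) for the brightest probe set of each gene, by gene list (y axis), with the 15 immediate early genes at the top. Red marks genes past 10% FDR (fosab, socs3a and socs3b), grey those above background on fewer than 3 arrays, and vertical bars are medians. The lists' medians run from -0.04 to 0.24 and that of the 15 genes is 0.39.

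Leucine zipper genes outside the fos, jun and atf3 families had the highest median of the 6 lists, 0.24, and none of 21 passed with limma (6 higher and 1 lower at an unadjusted p under 0.05). In 8 of the 21 every RA pool exceeded every DMSO pool, beside 6.98% of all probe sets, and 1 of these, cremb, lay at background on all arrays. The reverse held for 1, jdp2a, also at background on all arrays, beside 8.28% of all probe sets. The gene with the largest difference among those above background was cebpd, for a C/EBP factor of the acute phase response, at 52.2, 57.8 and 32.0 with DMSO and 109, 117 and 149 with RA. Its groups were apart, and the test was not passed (log2 difference 1.44, standard error 0.28, adjusted p = 0.143).

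Components that lead to the fos, jun and egr promoters include MAP kinases and their activators, ras genes, ribosomal S6 kinases and serum response factor with its partners. None of 20 passed with limma, and none had an unadjusted p under 0.05. The serum response factor gene srfa, its partner elk4 and map2k4a lay at background on all arrays, so nothing can be read about them. The median of the 20 genes was 0.03. The largest difference was that of map2k1, for the kinase MEK1, at 125 ± 19.6 (SD, n = 3) and 168 ± 13.2 (log2 difference 0.43, adjusted p = 0.588).

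Among 45 other immediate early genes, such as the nr4a, klf, myc, per and id genes, none passed with limma (5 higher and 1 lower at an unadjusted p under 0.05), and the median was 0.20. The largest difference among those above background was in klf9, a zinc finger gene known as a hormone-responsive repressor, which gave 100, 150 and 102 with DMSO and 243, 282 and 315 with RA (log2 difference 1.27, standard error 0.22, adjusted p = 0.113). In 4 of the 45 the RA pools all exceeded the DMSO pools, beside 6.98% of all probe sets. The reverse held for 3, beside 8.28% of all probe sets: mycn, rgs4 and ccn2b, the last at background on all arrays.

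Of 25 measured genes known as AP-1 targets in mammals, among them matrix metalloproteases and their inhibitors, none passed with limma, with 1 higher and 1 lower at an unadjusted p under 0.05 and a median of 0.09. The intermediate filament gene vim had the largest difference, from 126 ± 16.2 (SD, n = 3) to 279 ± 60.7 (log2 difference 1.13, adjusted p = 0.155). Of 26 genes of the ATF4 and ATF3 stress response, such as those for amino acid synthesis and for chaperones of the endoplasmic reticulum, none passed with limma (2 higher and 3 lower at an unadjusted p under 0.05), and the median was -0.04. The proapoptotic gene bbc3 was farthest from 0 there, at 41.7 ± 9.75 and 91.9 ± 16.4 (log2 difference 1.15, adjusted p = 0.187). In 5 of the 26 every RA pool lay below every DMSO pool, beside 8.28% of all probe sets. These were asns (log2 difference -0.84), sesn3 (-0.91), shmt2 (-0.46), psat1 (-0.41) and chac1 (-0.37). The reverse held for 2, bbc3 and edem1, beside 6.98% of all probe sets.

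The array profile of fosab was set beside those of all other genes with a single symbol. Likeness was the root mean square difference of log2 signals over the 6 arrays, each probe set centred on its own mean, so that small values mark genes with a step of like size between DMSO and RA pools. The 6 nearest genes were eno4 (0.13), bgnb (0.15), slc20a1a (0.20), zgc:174888 (0.27), zgc:64022 (0.29) and hoxd4a (0.32). Of these, eno4, bgnb, zgc:64022 and hoxd4a lay at background in all DMSO pools, so their distances and their order rest on values that were not measured above background. The measure picks genes with a large step, so no test is given for them.

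These genes mostly lay at background in DMSO eyes, and whether they share a role was not tested. The gene eno4, for an enolase-like protein, gave 7.58, 6.45 and 4.99 with DMSO and 27.5, 38.9 and 41.8 with RA, at least 2.69-fold higher from the background. The gene bgnb, for the matrix proteoglycan biglycan, was at least 4.25-fold higher, with 49.3, 56.4 and 63.3 in RA-treated eyes. The bounds were 2.70-fold for zgc:64022 and 1.54-fold for the homeobox gene hoxd4a. The phosphate transporter gene slc20a1a gave means of 13.4 and 75.2, with 1 DMSO pool above background. Only zgc:174888 was above background on all 6 arrays, at 57.5, 62.6 and 51.9 and then 179, 254 and 237 (log2 difference 1.95, standard error 0.20).

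**Figure D4:**
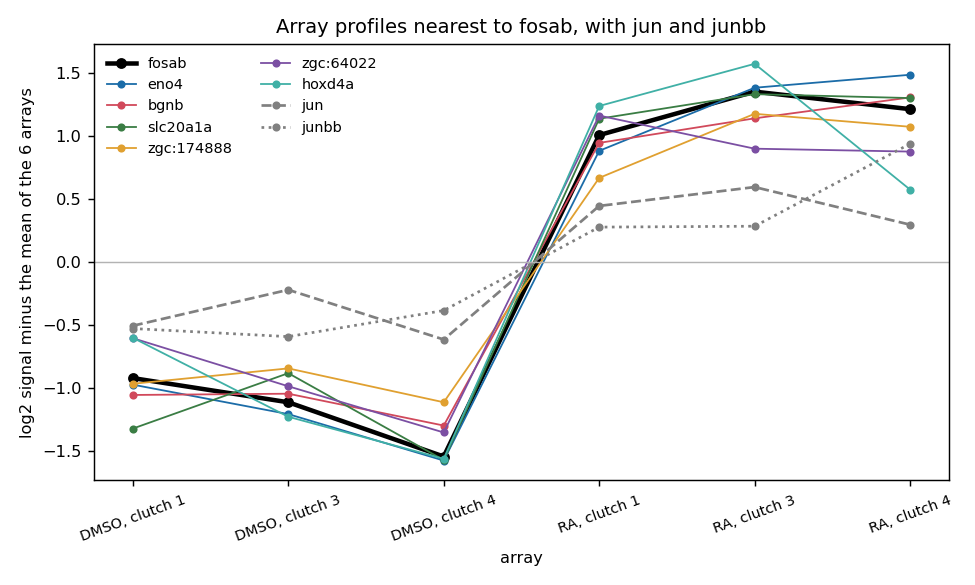
Log2 signal minus the mean of the 6 arrays (y axis) for fosab, the 6 genes nearest to it, and jun and junbb, on each array (x axis). Lines join the arrays of a gene for the eye only. The fosab profile runs from DMSO pools at -1.54 to -0.92 to RA pools at 1.01 to 1.35, and the steps of jun and junbb are smaller.

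The distances of the other immediate early genes from fosab are largely set by its selection for a large difference and are given as a description. The smallest were those of junbb and jun, both at 0.77, with 131 and 132 other genes nearer to fosab. They were followed by btg2 and ier2a, both at 1.01, atf3 at 1.04 and egr1 at 1.06. The gene junba lay at 1.12, with 1281 genes nearer, and ier5l was the most distant at 1.29, with 5310.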

How the data were processed

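RNA from pools of dissected eyes was amplified with a NuGen kit and hybridised to 6 Affymetrix arrays, 3 per group. The deposited values are linear intensities that the authors scaled so that each array has the same trimmed mean. The methods describe RMA, which gives log2 values of another kind, so the summary that made these intensities is not known here. They also name SAM, which was not run. Depth has no meaning for arrays, and 3 pools per group limit the precision.

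Intensities were log2-transformed and fitted with limma 3.58.1 in R 4.3.3 over 15555 probe sets, without other covariates, and p-values were adjusted by Benjamini-Hochberg (10% FDR). The fit was tested on simulated data. Background was the highest signal of 87 control probe sets. Genes are shown by their brightest probe set. Pools of the same number were treated as pairs, since the methods state that clutches were split. The deviations of same-numbered pools had correlations of 0.16, 0.42 and 0.28 over 9791 probe sets. Pools of different numbers were not compared, so these values cannot show that the numbers mark clutches. Alternatives were a clutch block, other scalings, 16 added to the signal, a floor, a filter on dim probe sets, an intensity trend, array weights, other thresholds and leaving out each array.

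All immediate early genes above background are named. From each list, genes past the FDR are named, or otherwise the one farthest from 0 among those above background on all arrays of a group. The genes and lists were chosen with earlier results of these data known. Nothing was read from genome or probe sequences, which were not used here. Unless the clutch block is named, p-values set the difference between groups against the spread between pools within groups. That fit leaves out the pairing by clutch.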

Additional observations from a re-analysis of the deposited data

How the results depend on the processing

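The log2 difference of fosab (2.39) was positive in every setting and moved beyond the spread between replicates with 16 added to the signal (1.80) and when averaged over all probe sets of the gene (1.95). It was 2.21 to 2.52 with 1 array left out. Of 170 values for single immediate early genes under alternatives, 158 kept their sign. The 12 others were of egr2a, egr2b, egr4 and fosl1b, all at background, and of ier5. Averaged in that way, fosl2 moved to 0.56.

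Blocking by clutch, the paired fit, gave 45 probe sets, 1 immediate early probe set and 0 listed genes past 10% FDR, against 131, 2 and 2 without it. Without the block, 1362 probe sets (8.76%) had an unadjusted p under 0.05. In the order all probe sets, immediate early probe sets, listed genes, the counts were 272, 5 and 10 with the filter on dim probe sets, 274, 6 and 8 with an intensity trend, 593, 5 and 11 with array weights and 291, 4 and 8 at 20% FDR. With 16 added, 232 probe sets and 9 listed genes passed, and jun joined fosab. At 5% FDR 73 probe sets and 0 listed genes passed, and with a floor at background 0 listed genes. With 1 array left out the counts were 52 to 117, 1 to 2 and 0 to 2. The cause of these shifts was not tested. Median centring and quantile normalization left 2 immediate early probe sets past the threshold, both of fosab. Signals near background limit the 2 dimmest fosab probe sets and egr2a, egr2b, egr4 and fosl1b.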
